A study of Mus musculus with 30 samples.

Results

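The genes described here are 39 lysosomal genes of the mouse: 9 cathepsins, 10 other hydrolases, 5 lysosomal proteins without hydrolase activity and 15 subunits or accessory proteins of the proton pump. They were taken by symbol from a table of 54532 genes, and all 39 were found. The data are RNA sequencing counts from dendritic cells grown for 6 days from bone marrow with GM-CSF, plated at 500000 cells per well and challenged with 500000 viable Aspergillus fumigatus conidia (spores) of isolate AF29. Cells came from Nlrx1 deficient mice (KO) and from wildtype mice (WT), each taken prior to challenge (0 h) and 3, 6, 9 and 12 h after it, with 3 libraries in each of the 10 groups. Nlrx1 is a mitochondrial member of the NOD-like receptor family. All cells of both genotypes went through the same GM-CSF culture. Neither the labels nor the design text give the age, sex, strain or number of mice or the design of the deleted allele. Whether replicate libraries stem from different mice or wells is not stated either, so each p-value reflects spread among libraries that may be technical.

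A phagocytosed spore ends up in a phagosome that fuses with lysosomes, where it meets acid and hydrolases. Acid is made by the V-ATPase, a rotary pump whose cytosolic V1 sector splits ATP and whose membrane V0 sector carries protons; its assembly on the membrane can be regulated. Cathepsins are the lysosomal proteases, and in dendritic cells they also process antigen for presentation on MHC class II. Many lysosomal genes are regulated together by the MiT/TFE transcription factors (TFEB, TFE3, MITF), which bind E-box elements with the core CACGTG.

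Library totals lay between 1722384 and 3509429 counts (median 2492886). All 39 genes passed the filter on low counts that left 12393 genes for testing, and the lowest count of any of them in any library was 20. Their median level was 202 CPM (counts scaled to library size), against 17.9 CPM over all genes tested, and together they took 3.33 to 3.78% of the counts in KO libraries and 3.39 to 4.15% in WT libraries. Nlrx1 had 0 to 14 counts in the 15 KO libraries and 13 to 46 in the 15 WT libraries (2.49 ± 1.75 CPM in KO and 9.32 ± 2.93 CPM in WT, SD), so the ranges touched but each KO group lay below its WT group on average. The genotype difference in Nlrx1 was -1.87 ± 0.28 averaged over times (log2, edgeR adjusted p = 1.71e-05). Taken time by time, the values were 0.0326 and 0.0209 at 0 and 9 h, which passed, but 0.128, 0.114 and 0.485 at 3, 6 and 12 h, which did not. The dendritic cell markers fixed for this work summed to 3299 to 3707 CPM in KO and 2715 to 3618 CPM in WT libraries, with Itgax and Cd74 at means of 1283 and 1236 CPM, while Flt3 and Cd209a were near 0 (0.603 and 0.348 CPM). Macrophage markers were present as well, at 1614 to 2370 CPM in KO and 2103 to 3138 CPM in WT, with 0 of 10 such genes at 0 in any library. In bulk RNA of this kind, fewer cells of a type and less RNA per cell cannot be told apart. One set of libraries stood apart: small nuclear, nucleolar and similar RNA genes took 3.07 to 4.28% of counts in KO at all times and 3.82 to 4.01% in WT at 12 h, but 5.48 to 6.80% in WT at 0 to 9 h.

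Changes are log2 changes ± standard error from edgeR's quasi-likelihood fit, levels are CPM, and a gene is said to have risen or fallen where its Benjamini-Hochberg adjusted p over all 12393 genes was under 0.05. A call given below with its value held with any 1 library left out unless the libraries that ended it are given. The 4 times of a genotype share its 0 h libraries, so their changes are not independent of each other. Shares called over all genes are given beside the counts of members but are not matched for level. Small changes are easier to call at the members' higher level (median 202 CPM against 17.9 CPM). Without the filter on low counts, calls over all genes fell too, for example from 1346 to 741 in KO at 9 h.

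Per kilobase of exon, lysozyme (Lyz2) was the most abundant member, averaging 6385 CPM per kb over all 30 libraries. It was followed by the saposin precursor Psap (3389 CPM per kb), the cysteine protease Ctss (2195) and the aspartic protease Ctsd (1216). Among the pump genes Atp6v0d2 came first at 257 CPM per kb, ahead of Atp6v0c (105), and the V1 subunit Atp6v1h was lowest at 8.66. The beta-galactosidase Glb1 was lowest of all at 5.65 CPM per kb. Single libraries ranged from 5672 to 7142 CPM per kb for Lyz2 and from 2912 to 3937 for Psap, and those of Ctss from 1887 to 2774 and of Ctsd from 836 to 1554, so these neighbours in the order did not overlap. Lyz2 has a near-identical copy, Lyz1, and reads may be divided between them.

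The stretch of 250 bases upstream of the RefSeq start (GRCm38.p6) was on hand for 31 of the 39 genes. It was not on hand for Atp6v1c1, Atp6v1g1, Atp6v1b2, Atp6v0d2, Atp6v1h, Asah1, Ctsh and Ctsb. The letters CACGTG, which read the same on both strands, stood in it for 10 of 31 members (32.3%) and for 1854 of all 27025 genes with such a stretch (6.86%). The members were Ctsa, Ctsd, Ctsl, Gaa, Glb1, Naglu, Lgmn, Lamp1, Atp6v0b and Atp6v1a, with 4 copies in Lamp1. Lgmn had more than 1 stretch. Its match stood only in the one at chr12:102439093-102439342, which lies inside the gene as annotated by GENCODE M21. By class these were 3 of 7 cathepsins, 4 of 9 other hydrolases, 1 of 5 proteins without hydrolase activity and 2 of 10 pump genes. The longer form TCACGTGA, which contains CACGTG, stood in 3 members (9.7%) and in 0.91% of all genes. A match is a description of letters and not of a bound site. Shown here, 5′ to 3′ on the gene's strand with CACGTG in capitals, are the stretches of a pair of V1 subunits that rose together after challenge, of the protease that rose most, and of the protease that differed most between genotypes. They lie at chr16:44139260-44139509 (minus strand) for Atp6v1a, chr12:78861639-78861888 (minus strand) for Atp6v1d, chr3:95498960-95499209 (plus strand) for Ctsk and chr13:64370521-64370770 (minus strand) for Ctsl. Atp6v1a and Ctsl hold 1 match each, and Atp6v1d and Ctsk hold 0. RefSeq and GENCODE starts differ for some genes. The Atp6v1a and Ctsl stretches lie wholly inside the GENCODE M21 genes, which begin at 44139705 and 64370890 on the minus strand. They are therefore not upstream of those annotated starts, and the stretch of Ctsd lies partly inside its gene.
Atp6v1a: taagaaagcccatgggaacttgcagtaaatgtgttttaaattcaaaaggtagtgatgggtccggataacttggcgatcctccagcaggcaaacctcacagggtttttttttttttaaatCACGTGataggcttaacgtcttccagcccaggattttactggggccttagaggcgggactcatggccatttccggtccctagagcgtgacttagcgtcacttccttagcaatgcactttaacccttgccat
Atp6v1d: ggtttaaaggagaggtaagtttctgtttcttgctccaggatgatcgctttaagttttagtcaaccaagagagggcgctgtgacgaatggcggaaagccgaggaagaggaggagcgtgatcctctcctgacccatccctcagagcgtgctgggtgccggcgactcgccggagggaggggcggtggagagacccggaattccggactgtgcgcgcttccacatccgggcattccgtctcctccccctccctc
Ctsk: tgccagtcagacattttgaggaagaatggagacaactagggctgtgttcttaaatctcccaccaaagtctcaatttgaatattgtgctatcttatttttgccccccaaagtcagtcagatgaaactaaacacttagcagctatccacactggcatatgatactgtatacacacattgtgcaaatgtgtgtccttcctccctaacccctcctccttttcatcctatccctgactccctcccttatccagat
Ctsl: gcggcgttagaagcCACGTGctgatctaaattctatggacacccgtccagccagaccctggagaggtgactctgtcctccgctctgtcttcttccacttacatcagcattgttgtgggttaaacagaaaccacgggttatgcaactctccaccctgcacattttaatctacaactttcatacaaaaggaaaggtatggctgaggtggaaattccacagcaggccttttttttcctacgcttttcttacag

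After challenge the lysosomal genes moved slowly, mostly upward and by small amounts. At 3 h, 2 of 39 rose in KO and 1 rose in WT, and none fell (0 of 39 in each genotype). Over all genes tested 1.03% rose and 0.186% fell in KO at that time, and 0.880% rose and 0.137% fell in WT. At 6 h, 6 rose and 2 fell in KO (3.21% and 2.70% of all genes), and 9 rose and 2 fell in WT (3.29% and 2.67%). At 9 h, 17 rose and 2 fell in KO (5.86% and 5.00% of all genes), and 15 rose and 2 fell in WT (5.57% and 4.81%). At 12 h, 14 rose and 4 fell in KO (8.13% and 6.58% of all genes), and 12 rose and 5 fell in WT (9.64% and 8.47%). At 9 h the median change of the 39 genes was 0.17 in KO and 0.19 in WT; 12 h gave 0.10 in KO and 0.06 in WT, against medians between -0.01 and 0.01 over all genes tested. Over these 8 comparisons 27 members were called at least once, 21 of them only upward, 5 only downward and 1 in both directions, and 12 were never called. Atp6v0d2 was the 1 gene called in all 8.

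These counts rest in part on single libraries. With any 1 library left out, 1 of 2, 4 of 8, 13 of 19 and 11 of 18 calls held in KO at 3, 6, 9 and 12 h, and 1 of 1, 4 of 11, 9 of 17 and 12 of 17 held in WT. In WT at 12 h, 4 of 17 stayed called when the share of small RNA genes was a covariate (Ctsk, Atp6v0d2, Atp6v1d and Atp6v1e1), while in KO at 12 h all 18 did. Over all genes tested the same covariate left 212 calls in WT, against 2245 without it, and 1788 calls in KO, against 1823. Most calls in WT were thus lost among all genes too. In WT that share separated the compared times (3.82 to 4.01% at 12 h, 5.48 to 6.04% at 0 h), so time and share cannot be told apart. In KO the ranges of the share at 12 h and 0 h overlapped, so the covariate could remove little there. The fit therefore cannot show whether the KO calls were firmer than the WT calls.

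The counts by class below stand beside these shares over all genes. At 9 h 5.86% rose and 5.00% fell in KO, and 5.57% rose and 4.81% fell in WT. At 12 h 8.13% rose and 6.58% fell in KO, and 9.64% rose and 8.47% fell in WT. The V1 sector showed the broadest rise. Of its 8 subunit genes 5 rose in KO and 5 in WT at 9 h. At 12 h 4 rose and 1 fell in KO and 5 rose and 1 fell in WT. The median change at 12 h was 0.34 in KO and 0.36 in WT. The risers in at least one genotype were the catalytic subunit Atp6v1a, the stalk subunits Atp6v1c1, Atp6v1d, Atp6v1e1 and Atp6v1g1, and Atp6v1h, which couples V1 to the membrane sector. Atp6v1g1 changed by 0.22 and 0.08 in KO at 6 and 9 h, which was not called, and rose by 0.27 ± 0.07 and 0.25 ± 0.07 in WT (adjusted p = 0.0190 and 0.0201), in calls that rest on single libraries. The 6 h call ended without WT 0 h replicate 1 (0.0871) or 2 (0.111) or WT 6 h replicate 3 (0.0992), and the 9 h call without WT 0 h replicate 1 (0.0760) or 2 (0.0923) or WT 9 h replicate 1 (0.0663). Both ended in a fit of the compared groups alone (0.0725 and 0.0615) and in DESeq2 (0.0726 and 0.0770), and the 6 h call also without the filter on low counts (0.297). The fall was in Atp6v1b2, the other nucleotide-binding subunit. Atp6v1f, a rotor subunit, was not called at any time, with changes of -0.04 to 0.17 in KO and 0.15 to 0.28 in WT.

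Atp6v1d (ENSMUSG00000021114), a subunit of the rotor shaft, had 118, 122 and 115 CPM in KO libraries at 12 h against 73.1, 98.2 and 75.5 CPM in KO at 0 h. WT libraries had 122, 118 and 131 CPM at 12 h against 85.5, 85.2 and 80.9 CPM at 0 h. All 12 h libraries lay above all 0 h libraries of their genotype, and the change was 0.52 ± 0.10 in KO (adjusted p = 0.000579) and 0.56 ± 0.10 in WT (adjusted p = 0.000172). Atp6v1c1, the subunit that docks V1 onto the stalk, had 147, 158 and 159 CPM in KO at 12 h against 114, 102 and 129 CPM in KO at 0 h. The WT levels were 163, 159 and 146 CPM at 12 h against 116, 101 and 112 CPM at 0 h. It rose by 0.43 ± 0.08 in KO and 0.51 ± 0.08 in WT (adjusted p = 0.000213 and 1.47e-05). Atp6v1e1, a stator subunit, rose by 0.37 ± 0.06 in KO and 0.48 ± 0.06 in WT at 12 h (adjusted p = 4.85e-05 and 7.21e-07), without overlap between the 12 h and 0 h libraries.

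Atp6v1a (ENSMUSG00000052459), which carries the catalytic ATP sites, peaked at 9 h. It had 354, 293 and 318 CPM in KO at 9 h against 200, 219 and 242 CPM in KO at 0 h, and 279, 320 and 323 CPM in WT at 9 h against 215, 206 and 186 CPM in WT at 0 h. It rose by 0.55 ± 0.13 in KO and 0.60 ± 0.13 in WT at 9 h (adjusted p = 0.00644 and 0.00288). At 12 h the change was 0.53 ± 0.13 in WT, which was called (adjusted p = 0.00528), and 0.32 in KO, which was not. One KO library at 3 h stood low, at 139 CPM beside 239 and 253 CPM. Atp6v1h had 99.8, 107 and 98.3 CPM in KO at 12 h against 68.6, 69.3 and 73.3 CPM in KO at 0 h, a rise of 0.53 ± 0.08 (adjusted p = 1.23e-05). WT cells had 86.1, 88.2 and 87.2 CPM at 12 h against 75.6, 78.0 and 68.0 CPM at 0 h, a change of 0.24 ± 0.08. That WT call (adjusted p = 0.0309) ended without WT 0 h replicate 3 (0.151) or without any of the WT 12 h replicates (0.0863, 0.0763 and 0.0617 for replicates 1 to 3). The change of Atp6v1h at 12 h did not differ between genotypes by test (KO change minus WT change 0.30 ± 0.11, adjusted p = 0.241). Its length overlaps Rgs20 on the opposite strand.

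Atp6v1b2 (ENSMUSG00000006273) went the other way. It had 377, 399 and 391 CPM in KO at 12 h against 439, 457 and 459 CPM in KO at 0 h, and 435, 435 and 466 CPM in WT at 12 h against 527, 535 and 549 CPM in WT at 0 h. The 12 h and 0 h libraries did not overlap in either genotype. The fall was -0.21 ± 0.05 in KO and -0.27 ± 0.05 in WT (adjusted p = 0.00168 and 9.99e-05), and in WT it was lost with the small RNA share as a covariate (adjusted p = 0.307). The locus overlaps Slc18a1 on the opposite strand.

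**Figure D1:**
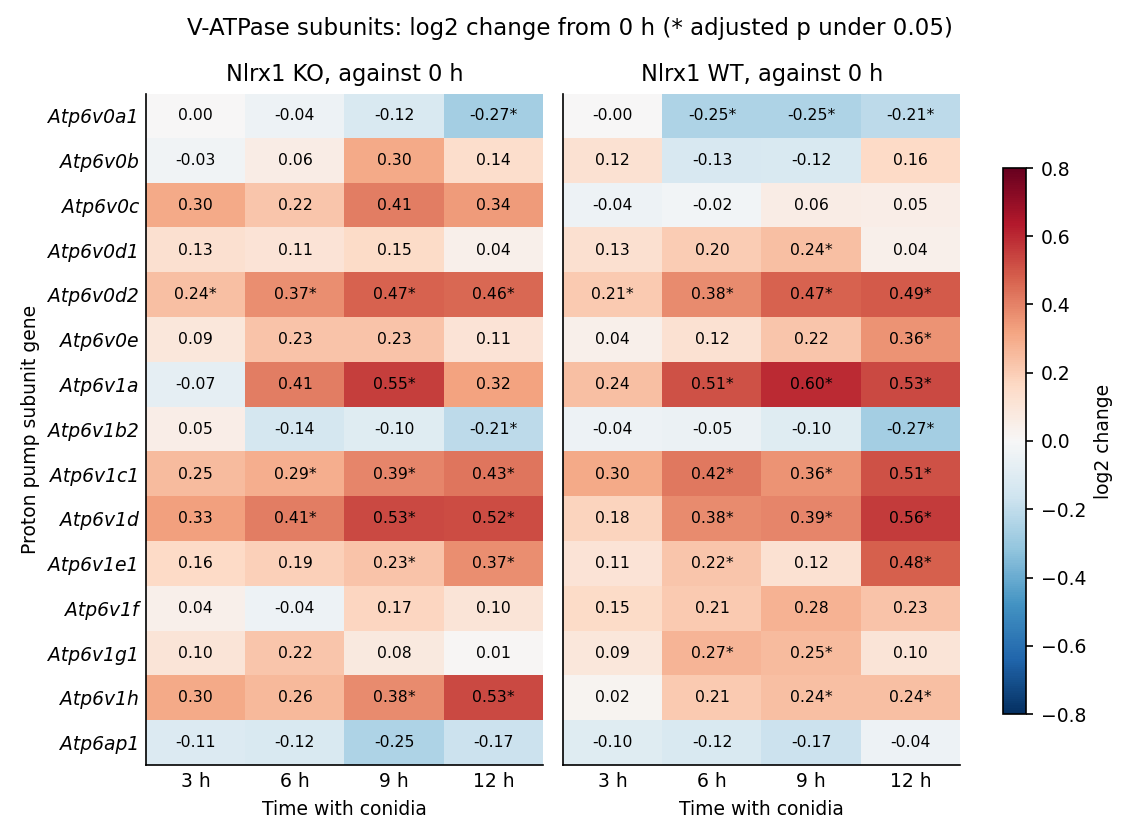
Log2 change from 0 h of each of the 15 proton pump genes at 3, 6, 9 and 12 h, KO on the left and WT on the right, with colour and number giving the change and * marking an adjusted p under 0.05. Atp6v0d2 is marked at every time in both genotypes, and Atp6v1b2 is marked downward at 12 h in both (-0.21 in KO and -0.27 in WT).

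In the V0 sector the change was concentrated in Atp6v0d2 (ENSMUSG00000028238), the form of subunit d that is abundant in osteoclasts and in some macrophages and dendritic cells. Its KO levels were 555, 539 and 550 CPM before challenge (0 h), then 663, 641 and 642 by 3 h, 717, 683 and 723 by 6 h, 724, 751 and 794 by 9 h, and finally 730, 772 and 762 at 12 h. Its WT levels were 567, 576 and 574 CPM before challenge, then 658, 657 and 669 by 3 h, 785, 717 and 736 by 6 h, 795, 819 and 771 by 9 h, and finally 797, 824 and 788 at 12 h. Every library at 3 h or later lay above every 0 h library, with nothing between 576 and 641 CPM. It rose by 0.24 ± 0.04, 0.37 ± 0.04, 0.47 ± 0.04 and 0.46 ± 0.04 in KO (adjusted p = 0.000549, 3.67e-07, 1.59e-09 and 1.08e-09) and by 0.21 ± 0.04, 0.38 ± 0.04, 0.47 ± 0.04 and 0.49 ± 0.04 in WT (0.00336, 2.18e-07, 1.96e-09 and 3.40e-10). The 3 h calls were lost without the filter on low counts (adjusted p = 0.208 in KO and 0.391 in WT) and in a fit of the compared groups alone (0.0538 and 0.0596). The course did not differ between genotypes by test (adjusted p = 0.973).

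Atp6v0d1, the ubiquitous form of the same subunit, changed less, by 0.15 in KO and 0.24 ± 0.07 in WT at 9 h and by 0.04 in each genotype at 12 h. The WT change at 9 h passed the test (adjusted p = 0.0184), but not without WT 0 h replicate 3 (0.0884) or WT 9 h replicate 1 (0.0806). Per kilobase, Atp6v0d2 was 2.97 ± 0.178 times as abundant as Atp6v0d1 in KO and 2.88 ± 0.120 times in WT at 0 h (SD, n = 3 each). The ratio was 3.25 ± 0.331, 3.57 ± 0.271, 3.69 ± 0.108 and 3.98 ± 0.129 in KO and 3.04 ± 0.0491, 3.27 ± 0.209, 3.37 ± 0.139 and 3.93 ± 0.171 in WT at 3, 6, 9 and 12 h. The single-library ratios at 12 h (3.84 to 4.09 in KO, 3.80 to 4.13 in WT) lay above those at 0 h (2.84 to 3.17 in KO, 2.80 to 3.01 in WT).

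**Figure D2:**
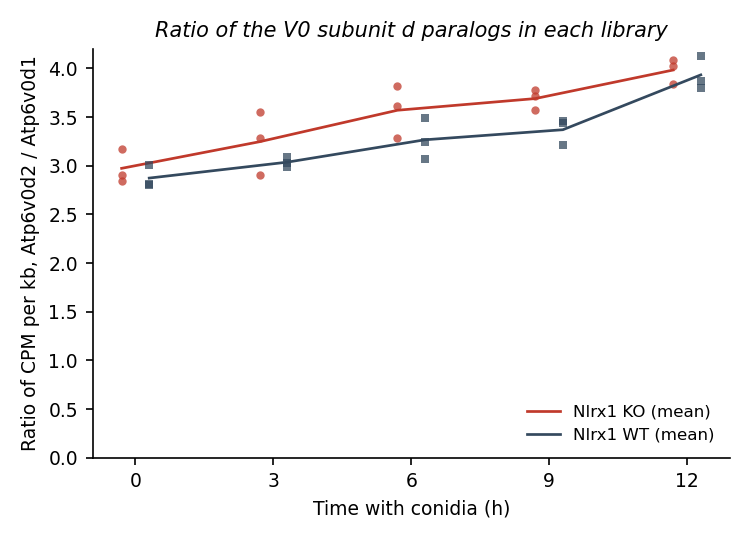
Ratio of Atp6v0d2 to Atp6v0d1 in CPM per kb of exon (y axis) against time with conidia in hours (x axis), 1 point per library, KO to the left of WT at each time and lines through the group means. The mean ratio goes up over the 12 h in both genotypes, to 3.98 in KO and 3.93 in WT.

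The remaining V0 genes moved little. Atp6v0a1, which holds the membrane stalk, had 149, 177 and 196 CPM in KO at 12 h against 214, 208 and 207 CPM in KO at 0 h (-0.27 ± 0.07, adjusted p = 0.0109), a call that ended without KO 12 h replicate 1 (0.108). In WT at 12 h its change was -0.21 ± 0.07 (adjusted p = 0.0409), a call that ended without WT 0 h replicates 1 to 3 (0.214, 0.0653 and 0.0594) or WT 12 h replicates 1 and 3 (0.135 and 0.121), each left out alone. Atp6v0e rose in WT at 12 h (0.36 ± 0.08, adjusted p = 0.00171) but not with the small RNA share as a covariate (0.344), and its change in KO was 0.11. Atp6v0b, Atp6v0c and the accessory protein Atp6ap1 were called in no comparison with 0 h. Atp6v0c, the proton-carrying ring subunit, was uneven between KO libraries, with 353, 172 and 316 CPM at 0 h and 387, 254 and 419 CPM at 12 h.

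Among the 9 cathepsins, Ctsk rose most and Ctsc fell. At 12 h 4 rose and 1 fell in KO and 2 rose and 1 fell in WT, with median changes of 0.10 in KO and 0.06 in WT, and at 9 h 3 rose and 1 fell in KO and 4 rose and 1 fell in WT. Ctsk (ENSMUSG00000028111), the collagen-cleaving protease best known from osteoclasts, had 12.5, 19.1 and 19.9 CPM in KO at 0 h, then 29.3, 25.8 and 29.5 by 3 h, 29.4, 27.9 and 29.3 by 6 h, 41.7, 36.9 and 39.2 by 9 h, and finally 41.4, 45.0 and 52.8 at 12 h. For WT the levels were 20.1, 19.3 and 20.7 CPM at 0 h, then 21.4, 22.7 and 19.3 by 3 h, 29.3, 31.1 and 25.4 by 6 h, 34.5, 36.7 and 35.5 by 9 h, and finally 49.8, 38.1 and 34.8 at 12 h. From 9 h on every library lay above every 0 h library of its genotype. It rose by 1.18 ± 0.15 at 9 h and 1.41 ± 0.15 at 12 h in KO (adjusted p = 1.72e-06 and 3.84e-08) and by 0.82 ± 0.14 and 1.04 ± 0.14 in WT (0.000180 and 3.59e-06). At 12 h this was 2.66-fold in KO and 2.05-fold in WT, and Ctsk was the 1 member past a doubling.

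In KO Ctsk was already above its 0 h libraries at 3 h (0.70 ± 0.15, adjusted p = 0.0136), while the WT change at 3 h was 0.07. That KO call ended without KO 0 h replicate 1 (adjusted p = 0.146), the lowest Ctsk library of the series, and without KO 3 h replicate 1 (0.0647) or 3 (0.0655). The course of Ctsk did not differ between genotypes by test (adjusted p = 0.577). The markers on the osteoclast list fixed for this work did not all move in the direction of Ctsk and Atp6v0d2. Of the 5 that could be tested, 1 rose and 2 fell in KO and 1 rose and 3 fell in WT at 12 h. Over all genes tested 8.13% rose and 6.58% fell in KO, and 9.64% rose and 8.47% fell in WT. Whether a change in cell types had a part in the rises of Ctsk and Atp6v0d2 was not tested. Acp5, the acid phosphatase of that list, rose by 0.47 ± 0.09 in KO and 0.55 ± 0.09 in WT, and its level at 12 h was 92.1 ± 5.77 CPM in KO and 80.8 ± 4.68 CPM in WT (SD, n = 3). Calcr and Oscar of the list were near 0, at means of 0.303 and 0.112 CPM, and Oscar was at 0 in 27 of 30 libraries. The others were present in every library. Mmp9, Dcstamp, Acp5, Ocstamp and Nfatc1 averaged 223, 98.3, 73.7, 45.2 and 39.3 CPM.

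Ctsc (ENSMUSG00000030560), the dipeptidyl peptidase that activates granule serine proteases, fell at 9 h. It had 155, 145 and 147 CPM in KO at 9 h against 222, 238 and 228 CPM in KO at 0 h, and 148, 142 and 131 CPM in WT at 9 h against 185, 190 and 178 CPM in WT at 0 h, with no overlap. The change was -0.62 ± 0.07 in KO and -0.39 ± 0.07 in WT (adjusted p = 9.88e-07 and 0.000575), and the WT call was lost without the filter on low counts (0.0522). At 12 h the level was 183, 201 and 170 CPM in KO, still lower than at 0 h (-0.31 ± 0.07, adjusted p = 0.00389), and the WT change of -0.18 was not called. From 9 h to 12 h Ctsc rose in KO by 0.31 ± 0.07 (adjusted p = 0.0127), though not without KO 9 h replicate 2 (0.0683), KO 9 h replicate 3 (0.0804) or KO 12 h replicate 2 (0.152).

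The abundant cathepsins moved by smaller amounts. Ctsb, a cysteine protease with both endo- and exopeptidase activity, had 3048, 2855 and 2819 CPM in KO at 12 h against 2463, 2637 and 2509 CPM in KO at 0 h. It rose by 0.20 ± 0.03 at 9 h and at 12 h in KO (adjusted p = 0.000160 and 0.000177) and by 0.20 ± 0.03 at 9 h in WT (0.000241), with a WT change of 0.06 at 12 h. The KO call at 12 h was lost without the filter on low counts (0.117). Ctss, which trims the MHC class II invariant chain, had 3298, 3366 and 3279 CPM in WT at 12 h against 2712, 2671 and 2636 CPM in WT at 0 h, a rise of 0.31 ± 0.04 (adjusted p = 6.27e-06) that was lost with the small RNA share as a covariate (0.270). In KO it had 3768, 3244 and 3171 CPM at 12 h against 2937, 3123 and 3060 CPM at 0 h (0.16 ± 0.04, adjusted p = 0.0121), which ended without KO 0 h replicate 1 (0.0874) or KO 12 h replicate 1 (0.207). The carboxypeptidase Ctsa passed the test at 12 h in KO (0.18 ± 0.06, adjusted p = 0.0305), but not without KO 0 h replicates 1 to 3 (0.0732, 0.115 and 0.0740) or KO 12 h replicate 2 (0.350), each left out alone. The cathepsin that fell in WT at 12 h was Ctsl (-0.27 ± 0.08, adjusted p = 0.0143), with 944, 986 and 959 CPM at 12 h against 942, 1281 and 1259 CPM at 0 h. The low 0 h library overlapped the 12 h libraries, and the call ended without WT 0 h replicate 2 (0.129) or 3 (0.101) and with the small RNA share as a covariate (0.412). Ctsd, Ctsh and Ctsz were not called against 0 h at any time, and Ctsd varied between libraries of a group, for example 1964, 2702 and 2476 CPM in KO at 0 h. Ctsd shares its strand with the overlapping gene Gm49369, so its counts may be split.

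**Figure D3:**
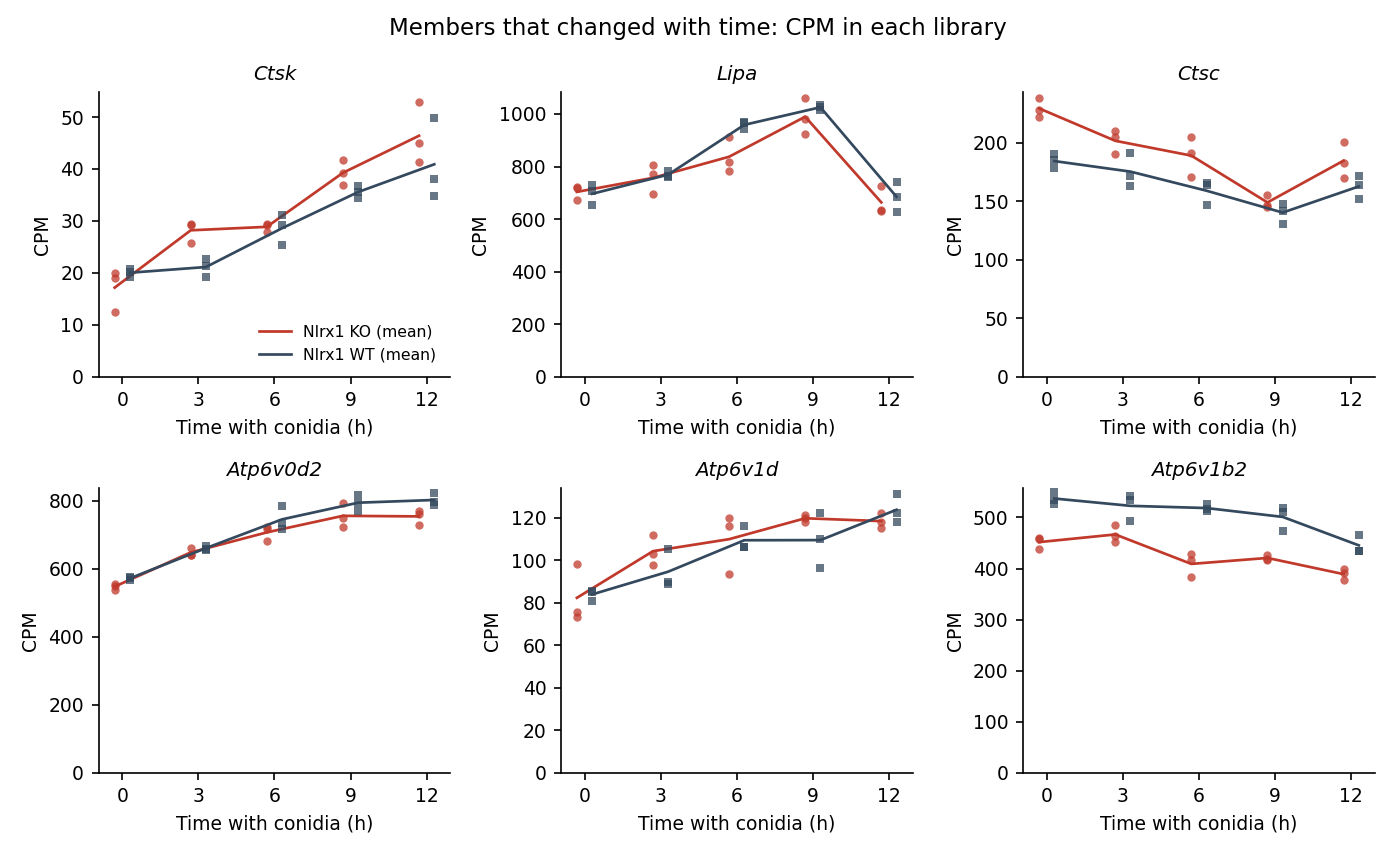
CPM in each library (y axis, from 0) against time with conidia in hours (x axis) for 6 members that changed with time, KO to the left of WT at each time and lines through group means. Ctsk and Atp6v0d2 climb, Lipa peaks at 9 h and returns, Ctsc dips at 9 h, and Atp6v1b2 ends at 377 to 399 CPM in KO and 435 to 466 CPM in WT.

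Of the 10 other hydrolases, 5 rose and 1 fell in KO and 3 rose in WT at 9 h, and 4 rose and 1 fell in KO and 2 rose and 1 fell in WT at 12 h. The clearest course was that of Lipa (ENSMUSG00000024781), the acid lipase that frees cholesterol and fatty acids from endocytosed lipid. It had 925, 982 and 1062 CPM in KO at 9 h against 718, 672 and 721 CPM in KO at 0 h, and 1016, 1026 and 1035 CPM in WT at 9 h against 654, 728 and 707 CPM in WT at 0 h. It rose by 0.49 ± 0.07 in KO and 0.56 ± 0.07 in WT at 9 h (adjusted p = 6.13e-06 and 8.28e-07). It had risen by 6 h in both, by 0.25 ± 0.07 in KO (adjusted p = 0.0206) and 0.46 ± 0.07 in WT (adjusted p = 3.00e-05). The KO call at 6 h ended without KO 0 h replicate 2 (0.129) or KO 6 h replicate 1 (0.159), without the filter on low counts (0.290) and in a fit of the compared groups alone (0.0597). At 12 h it was back at 630, 635 and 726 CPM in KO and 629, 683 and 743 CPM in WT, a change from 9 h of -0.58 ± 0.07 in each genotype (adjusted p = 7.92e-07 in KO and 4.41e-07 in WT).

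Lgmn (ENSMUSG00000021190), an asparaginyl endopeptidase that also matures several cathepsins, had 189, 203 and 176 CPM at 9 h and 181, 185 and 196 CPM at 12 h in KO, against 139, 142 and 123 CPM in KO at 0 h. Among WT libraries it had 218, 214 and 222 CPM at 9 h and 214, 220 and 214 CPM at 12 h, against 166, 182 and 180 CPM at 0 h. It rose by 0.49 ± 0.06 and 0.48 ± 0.06 in KO (adjusted p = 4.20e-06 and 4.30e-06) and by 0.31 ± 0.06 and 0.30 ± 0.06 in WT (0.00120 and 0.00122). The WT call at 12 h was lost with the small RNA share as a covariate (0.836). Hexa, the alpha subunit of hexosaminidase, rose in WT at 12 h by 0.30 ± 0.06 (adjusted p = 0.000258; 0.0560 with that covariate). In KO at 12 h its change was 0.18 ± 0.06 (adjusted p = 0.0252), lost without KO 0 h replicate 1 (0.135) or 3 (0.132) or KO 12 h replicate 1 (0.176) or 2 (0.0958).

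Naglu and Gaa, which degrade heparan sulphate and glycogen, were low and spread widely. Naglu had 38.3, 32.9 and 28.5 CPM in KO at 9 h against 14, 25.5 and 18.1 CPM in KO at 0 h (0.77 ± 0.19, adjusted p = 0.00765), a call that ended without KO 0 h replicate 1 (0.0571) or KO 9 h replicate 1 (0.0530). WT samples had 34.9, 34.1 and 37.6 CPM at 9 h against 22.6, 28.1 and 27.8 CPM at 0 h, a change of 0.45 that was not called. Gaa had 63.6, 57.9 and 64.9 CPM in KO at 9 h against 48.6, 42.3 and 38.9 CPM in KO at 0 h (0.53 ± 0.13, adjusted p = 0.00938), which ended without KO 0 h replicate 3 (0.0558), and its WT change of 0.27 was not called. Lyz2, the muramidase, fell slightly in KO at 9 h (-0.20 ± 0.04, adjusted p = 0.000497) and at 12 h (-0.16 ± 0.04, adjusted p = 0.00394), calls that were lost without the filter on low counts (0.125 and 0.109). Its WT change at 12 h was -0.14 ± 0.04 (adjusted p = 0.0125), lost without WT 0 h replicate 1 (0.0914) or WT 12 h replicate 2 (0.0526) or 3 (0.0998). Gusb, Glb1, Man2b1 and the acid ceramidase Asah1 were called against 0 h in neither genotype, with 12 h changes of -0.08, -0.19, 0.03 and -0.29 in KO and -0.12, -0.13, -0.07 and 0.08 in WT.

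Of the 5 lysosomal proteins without hydrolase activity, 3 rose in KO and 1 in WT at 9 h, and 1 rose in KO and 1 rose and 1 fell in WT at 12 h. In KO at 9 h, Psap rose by 0.17 ± 0.03 (adjusted p = 0.00124) and the tetraspanin Cd63 by 0.20 ± 0.05 (adjusted p = 0.00491), calls that were lost without the filter on low counts (0.110 and 0.127). Lamp2, a membrane protein needed for phagosome and autophagosome maturation, had 410, 406 and 401 CPM in WT at 12 h against 338, 330 and 339 CPM in WT at 0 h, a rise of 0.27 ± 0.06 (adjusted p = 0.000780; 0.335 with the small RNA share as a covariate). In KO it had 448, 400 and 439 CPM at 12 h against 417, 377 and 412 CPM at 0 h, a change of 0.09 that was not called. Lamp1, an abundant membrane glycoprotein, changed by 0.15 ± 0.04 in KO and 0.14 ± 0.04 in WT at 9 h (adjusted p = 0.0280 and 0.0384). The KO call ended without KO 0 h replicate 3 (0.0837) or KO 9 h replicate 1 (0.0714) or 2 (0.159). The WT call ended without WT 0 h replicate 1 (0.0949) or 3 (0.106) or any of WT 9 h replicates 1 to 3 (0.0741, 0.0588 and 0.109). Progranulin (Grn) was called nowhere and ranged from 256 to 414 CPM in KO and 241 to 440 CPM in WT.

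Between 9 h and 12 h the genotypes were compared with their own 9 h libraries. In KO 1 member rose and 1 fell (2.65% and 1.84% of all genes), and in WT 2 rose and 9 fell (5.16% and 5.37% of all genes). With any 1 library left out, 1 of 2 calls held in KO and 4 of 11 in WT. The 4 in WT were Lipa, Psap (-0.21 ± 0.03, adjusted p = 0.000179), Lamp2 (0.23 ± 0.06, adjusted p = 0.00580; 0.262 without the filter on low counts) and Atp6v1e1 (0.37 ± 0.06, adjusted p = 6.96e-05). Since the small RNA share also differed between WT at 12 h and WT at 9 h (3.82 to 4.01% against 5.55 to 6.53%), the time and that share cannot be told apart in WT.

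Transcripts of several hydrolases were lower in KO than in WT at 0, 3, 6 and 9 h. At 12 h 0 of 9 cathepsins and 1 of 10 other hydrolases were called lower. Averaged over the 5 times, 16 members were lower and 5 higher in KO than in WT, where 12.2% of all genes were lower and 12.6% higher. The median difference of the 39 genes was -0.05, against 0.01 over all genes tested. By class, 5 cathepsins were lower and 2 higher, 4 other hydrolases were lower and 0 higher, 3 proteins without hydrolase activity were lower and 1 higher, and 4 pump genes were lower and 2 higher. No difference reached a doubling. With the share of small RNA genes as a covariate none of these 21 average differences passed the test (0 of 39 members), and over all genes tested 4 passed, against 3082 without it. The genotype and that share thus cannot be told apart in this average, in the members as in other genes.

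The largest difference was in Ctsl (ENSMUSG00000021477), a cysteine protease that processes antigen and matures other lysosomal enzymes. In KO it had 809, 828 and 819 CPM at 0 h, then 843, 790 and 811 by 3 h, 840, 877 and 910 by 6 h, 789, 897 and 846 by 9 h, and finally 900, 852 and 823 at 12 h. WT libraries had 942, 1281 and 1259 CPM at 0 h, then 1187, 1288 and 1328 by 3 h, 1295, 1174 and 1107 by 6 h, 1180, 1183 and 1105 by 9 h, and finally 944, 986 and 959 at 12 h. The highest KO library (910 CPM) lay below the lowest WT library (942 CPM), so the genotypes did not overlap. The difference was -0.44 ± 0.03 averaged over times (adjusted p = 1.69e-10), and -0.50, -0.64, -0.44 and -0.45 at 0, 3, 6 and 9 h (each ± 0.08), but -0.17 at 12 h (adjusted p = 0.402). The 0 h call was lost in a fit of the compared groups alone (0.0745). Ctsl overlaps the pseudogene Gm49230 on its strand and the antisense gene Gm47123.

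Lgmn followed at -0.31 ± 0.03 (adjusted p = 3.82e-09), with a lowest, median and highest level of 123, 176 and 203 CPM over the 15 KO libraries and 166, 214 and 222 CPM over the 15 WT libraries. Ctsb had 2463, 2728 and 3048 CPM in KO and 3008, 3210 and 3541 CPM in WT (-0.25 ± 0.02, adjusted p = 1.49e-12). Ctsd, the main aspartic protease, had 1964, 2637 and 3179 CPM in KO and 2406, 3167 and 3652 CPM in WT (-0.26 ± 0.07, adjusted p = 0.00862). The genotypes overlapped for all 3 when times were pooled. Ctsa, which also protects galactosidase and neuraminidase, was lower by test (-0.21 ± 0.03, adjusted p = 3.74e-07). So were the glycosidases Gusb (-0.24 ± 0.03, adjusted p = 2.24e-06; 0.02 with the small RNA share as a covariate), Hexa (-0.19 ± 0.03, adjusted p = 1.60e-06) and Man2b1 (-0.13 ± 0.03, adjusted p = 0.00167). Psap, whose saposins help sphingolipid hydrolases, was lower too (-0.18 ± 0.02, adjusted p = 9.45e-10), as were Lamp1 (-0.11 ± 0.02, adjusted p = 0.000189) and Cd63 (-0.10 ± 0.02, adjusted p = 0.000945).

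On the pump, Atp6v1b2 had 377, 427 and 485 CPM as the lowest, median and highest level in KO and 435, 516 and 549 CPM in WT, a difference of -0.24 ± 0.02 (adjusted p = 9.49e-10). Atp6v1g1 (-0.17 ± 0.03, adjusted p = 0.000226), Atp6v0d1 (-0.15 ± 0.03, adjusted p = 0.000887) and Atp6v0d2 (-0.07 ± 0.02, adjusted p = 0.00624) were also lower. Atp6v1e1 was higher in KO (0.12 ± 0.03, adjusted p = 0.000959), though not without the filter on low counts (0.271). The V1 catalytic subunit Atp6v1a did not differ by test (-0.02 ± 0.06), nor did Atp6v1c1 (0.02) or Atp6v1d (0.04).

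A few members were higher in KO. Lamp2 had 348, 407 and 448 CPM as the lowest, median and highest level in KO and 322, 340 and 410 CPM in WT (0.22 ± 0.02, adjusted p = 1.36e-07). Ctsc had 145, 191 and 238 CPM in KO and 131, 164 and 191 CPM in WT (0.21 ± 0.03, adjusted p = 3.24e-05). Ctss was higher by 0.11 ± 0.02 (adjusted p = 0.000127), though not without the filter on low counts (0.191). The remaining calls ended with single libraries left out. Atp6v0e (0.11 ± 0.04, adjusted p = 0.0231) was lost without KO 0 h replicate 3 (0.0519), KO 6 h replicate 2 (0.0557), KO 9 h replicate 2 (0.0509) or KO 12 h replicate 2 (0.0569). Ctsz (-0.05 ± 0.02, adjusted p = 0.0383) was lost, at 0.0502 to 0.0691, without any of WT 0 h replicate 1, WT 3 h replicates 1 and 2, WT 9 h replicate 3, WT 12 h replicate 1, KO 0 h replicate 1, KO 3 h replicates 1 and 3, KO 6 h replicate 3, KO 9 h replicate 3 and KO 12 h replicate 3.

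**Figure D4:**
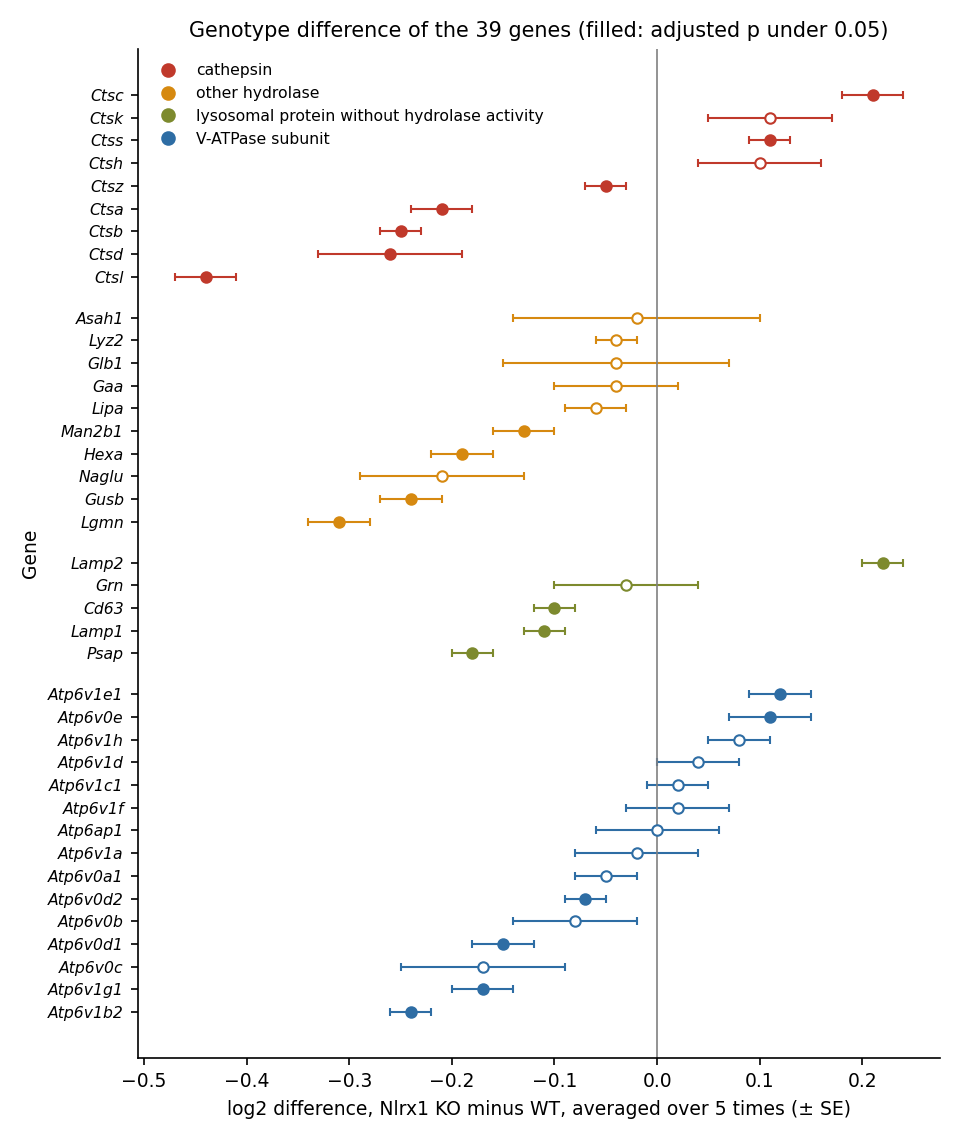
Log2 difference between KO and WT averaged over the 5 times (x axis, KO minus WT, bars are the standard error of the fit) for each of the 39 genes (y axis), coloured by class and ordered within it, with filled points for an adjusted p under 0.05. Most filled points lie left of 0, from -0.44 for Ctsl, and Lamp2 and Ctsc lie farthest to the right at 0.22 and 0.21.

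Time by time, 6 members were lower and 3 higher in KO at 0 h (2.76% and 2.26% of all genes), 10 lower and 1 higher at 3 h (3.90% and 3.02%), 8 lower and 2 higher at 6 h (3.36% and 2.42%), 8 lower and 2 higher at 9 h (2.91% and 2.15%), and 2 lower and 0 higher at 12 h (0.678% and 1.23%). With any 1 library left out, 6 of 9, 6 of 11, 6 of 10, 5 of 10 and 0 of 2 of these calls held. Ctsb, Ctsl and Psap were lower at 0, 3, 6 and 9 h in calls that held. At 12 h the called genes were Hexa (-0.25, adjusted p = 0.0104) and Atp6v1b2 (-0.19, adjusted p = 0.0212). Hexa was lost without WT 12 h replicate 2 (0.0565) or KO 12 h replicate 3 (0.106), and Atp6v1b2 without WT 12 h replicate 3 (0.116) or KO 12 h replicate 1 (0.0918) or 3 (0.0704).

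Other measures moved with genotype in the same libraries. The share of small RNA genes was 3.07 to 4.28% in KO and 5.48 to 6.80% in WT at 0 to 9 h. With the 12 h libraries left out, all 21 average calls held. The share did not overlap between genotypes in the libraries that remained, so this fit cannot tell genotype and share apart. This fit and the one with the covariate in the average were chosen after seeing the data. Macrophage markers summed to 1614 to 2370 CPM in KO and 2103 to 3138 CPM in WT. Neutrophil markers summed to 795 to 1325 CPM in KO and 1050 to 1732 CPM in WT. Among the latter Mmp8 averaged 731 CPM, ahead of S100a9 (203), S100a8 (92.1), Ngp (79.8), Ltf (42.6) and Camp (3.13). Mpo, Elane, Ly6g and Retnlg were near 0. Over all genes tested, 12.2% were lower and 12.6% higher in KO averaged over the 5 times (adjusted p under 0.05). In the same average 8 of 10 macrophage markers were lower and 1 higher in KO. Of the 6 neutrophil markers that could be tested all 6 were lower. The part of these differences in the genotype results was not tested.

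**Figure D5:**
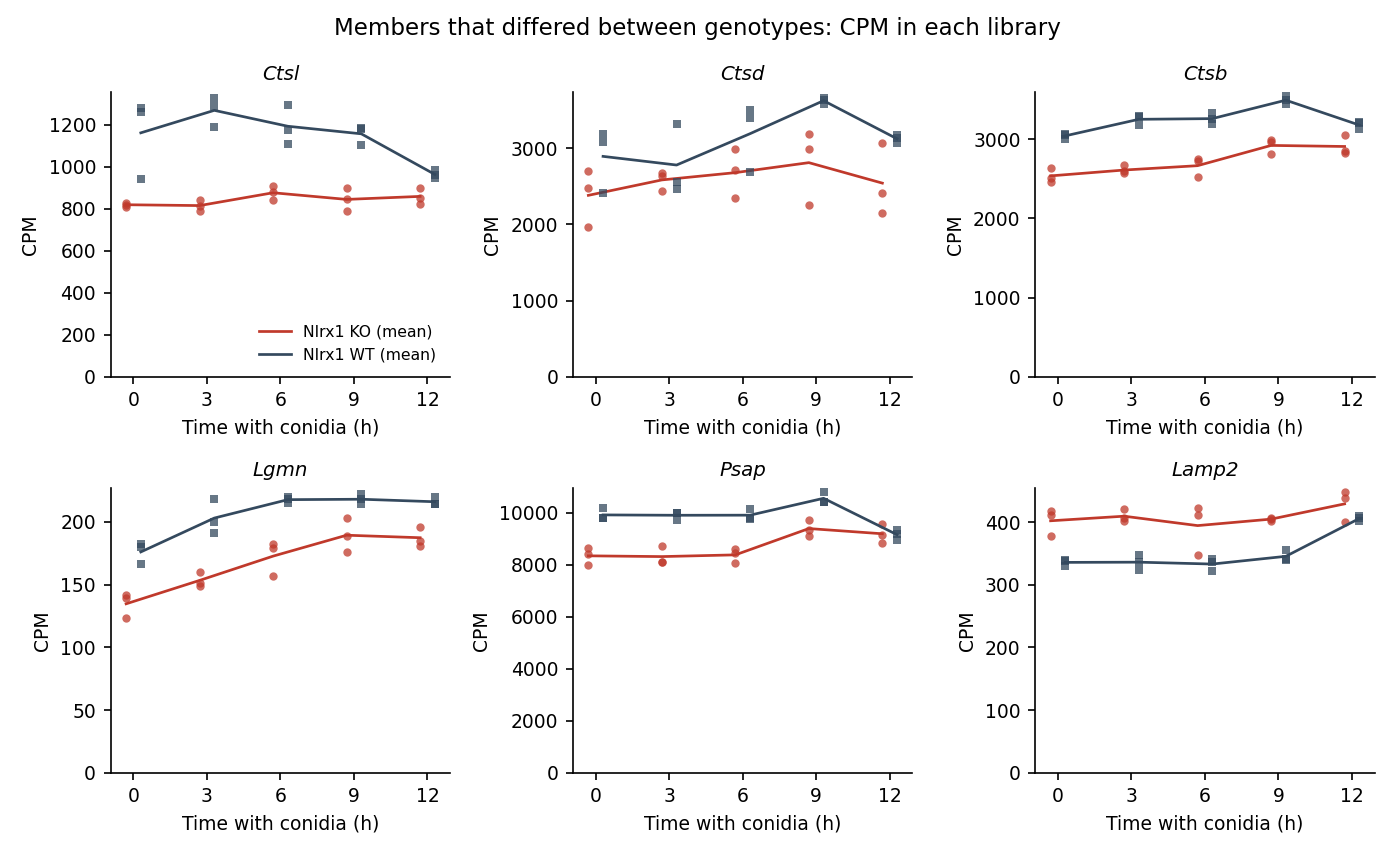
CPM in each library (y axis, from 0) against time with conidia in hours (x axis) for 6 members that differed between genotypes, KO to the left of WT at each time and lines through group means. Ctsl, Ctsb, Lgmn and Psap run lower in KO up to 9 h, Lamp2 runs higher, and at 12 h the Psap libraries of both genotypes lie between 8844 and 9571 CPM.

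Whether the response itself differed between genotypes was asked with an F test of the 4 genotype differences in the change from 0 h. It called 1 of 39 members, Psap, against 0.888% of all genes. The test of the change at 12 h alone also called 1 member, against 0.726% of all genes. Psap (ENSMUSG00000004207) had 7991, 8623 and 8401 CPM in KO at 0 h, then 8102, 8715 and 8111 by 3 h, 8466, 8056 and 8604 by 6 h, 9733, 9344 and 9083 by 9 h, and finally 9571, 9143 and 8844 at 12 h. In WT it had 9788, 10164 and 9780 CPM at 0 h, then 9996, 9990 and 9705 by 3 h, 10133, 9798 and 9771 by 6 h, 10804, 10424 and 10419 by 9 h, and finally 9180, 9333 and 8939 at 12 h. At 12 h the KO libraries lay above their 0 h libraries and the WT libraries below theirs. The KO change minus the WT change at 12 h was 0.25 ± 0.05 (adjusted p = 0.0119), and the F test gave an adjusted p of 0.0134. The 12 h difference was lost without WT 0 h replicate 2 (0.0572), WT 12 h replicate 3 (0.0558), KO 0 h replicate 1 (0.0502) or KO 12 h replicate 1 (0.0541), each left out alone, and without the filter on low counts (0.564). With the small RNA share as a covariate, a fit chosen after seeing the data, it was 0.23 and not called (adjusted p = 0.545), and neither was the F test (0.738). The F test was lost without WT 12 h replicate 3 (0.0725), without KO 12 h replicate 1 (0.0845), without the filter on low counts (0.667) and with the 12 h libraries left out (0.903). Within KO the 12 h change was 0.14 ± 0.03 (adjusted p = 0.00614), lost without KO 0 h replicate 1 (0.0727) or KO 12 h replicate 1 (0.0705). Within WT it was -0.12 ± 0.03 (adjusted p = 0.0216), lost without WT 0 h replicate 2 (0.125) or WT 12 h replicate 3 (0.116). Next after Psap, Ctsl had an F test adjusted p of 0.149, with a KO change minus WT change of 0.34 ± 0.11 at 12 h.

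Around the 39 members, 133 further lysosomal genes stood in 5 lists, of which 112 could be tested. Over all genes tested 8.13% rose and 6.58% fell in KO at 12 h, and 9.64% rose and 8.47% fell in WT. The share that rose lay above these values in each list and genotype. The share that fell lay below them, except for the 1 pump gene in each genotype. Of 10 other lysosomal proteases and inhibitors, 3 rose in KO and 2 in WT at 12 h, with 0 falls. Scpep1, a serine carboxypeptidase, rose by 0.62 ± 0.09 in KO and 0.45 ± 0.09 in WT. Of 39 other hydrolases and activators, 7 rose in KO, and 7 rose and 2 fell in WT. Gla, the alpha-galactosidase, rose by 0.72 ± 0.10 in KO and 0.50 ± 0.10 in WT, and Hpse, the heparanase, rose by 1.22 ± 0.27 in KO. Galc, the galactocerebrosidase, rose by 0.61 ± 0.14 in WT. Of 11 other pump subunits and accessory proteins, 2 rose and 1 fell in KO and 3 rose and 1 fell in WT. Ncoa7, whose TLDc protein binds the pump, rose by 0.62 ± 0.15 in KO and 0.59 ± 0.15 in WT, and Dmxl1, a pump assembly factor, by 0.37 ± 0.09 in KO and 0.51 ± 0.09 in WT. The receptor-like Atp6ap2 fell by 0.22 ± 0.06 in KO (adjusted p = 0.00770), but not without the filter on low counts (0.0871), in a fit of the compared groups alone (0.0628) or in DESeq2 (0.0862). The KO call of Dmxl1 was likewise lost without the filter (0.0754). Tcirg1, the a3 form of the V0 stalk subunit, changed by 0.19 in KO and -0.16 in WT, and neither was called.

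Of 33 membrane, channel and sorting proteins, 6 rose and 2 fell in KO and 6 rose and 2 fell in WT at 12 h. Mcoln2, a lysosomal cation channel, rose by 0.85 ± 0.13 in KO and 0.73 ± 0.13 in WT. Slc15a3, a peptide and histidine transporter, rose by 0.64 ± 0.08 in KO and 0.44 ± 0.08 in WT, and the sorting adaptor Gga2 by 0.62 ± 0.13 in KO. Tpcn1, an endolysosomal two-pore channel, fell by 0.71 ± 0.12 in KO and fell by 0.87 ± 0.12 in WT, and Ostm1, partner of the chloride transporter Clcn7, fell by 0.41 ± 0.10 in KO, though not in a fit of the compared groups alone (adjusted p = 0.0766). Of 20 MiT/TFE and nutrient-sensing genes, 5 rose in KO, and 3 rose and 1 fell in WT. The folliculin partners Fnip1 and Fnip2 rose by 0.88 ± 0.08 and 1.04 ± 0.07 in KO and by 0.93 ± 0.08 and 0.62 ± 0.07 in WT, and folliculin itself (Flcn) by 0.64 ± 0.13 in KO. Gpnmb, a known MiT/TFE target, rose by 0.54 ± 0.03 in KO and 0.41 ± 0.03 in WT. Of the WT values named here for the 5 lists, those of Fnip1 and Tpcn1 passed with the small RNA share as a covariate and the others did not. The factors themselves were not called at 12 h: Tfeb changed by -0.34 in KO and -0.13 in WT, Tfe3 by -0.07 in KO and -0.18 in WT, and Mitf by 0.08 in KO and -0.04 in WT.

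Averaged over times, 12.2% of all genes were lower and 12.6% higher in KO. The same lists gave 2 lower and 0 higher among the 10 proteases and inhibitors, 6 lower and 4 higher among the 39 hydrolases, 1 lower and 3 higher among the 11 pump genes, 7 lower and 5 higher among the 33 membrane proteins, and 6 lower and 3 higher among the 20 MiT/TFE genes, so the hydrolases lay near the shares of all genes. The cathepsin inhibitor Cst3 was lower in KO (-0.27 ± 0.05, adjusted p = 0.000112). Hyal2 (-0.62 ± 0.19), Galns (-0.35 ± 0.07) and Pla2g15 (-0.32 ± 0.06) were lower too, as were Tcirg1 (-0.13 ± 0.03), Lamtor4 (-0.36 ± 0.06) and Gpnmb (-0.24 ± 0.01). Acp5 was higher (0.17 ± 0.04, though not without the filter on low counts, adjusted p = 0.133), as was the membrane protein Laptm4a (0.28 ± 0.04). So were Mcoln2 and Slc38a9 of the same list (adjusted p = 0.00596 and 0.0262), but not without the filter (0.0877 and 0.149). Slc38a9 also ended without WT 3 h replicate 1, KO 0 h replicate 1, KO 3 h replicate 1 or KO 6 h replicate 3. Tfeb was lower, at 22.6 ± 4.42 CPM in KO and 28.5 ± 5.69 CPM in WT (SD, n = 15; -0.33 ± 0.10, adjusted p = 0.0151), while Tfe3 (-0.03) and Mitf (0.27) were not called. With the small RNA share as a covariate Gpnmb was the only gene of the 5 lists still called in this average.

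In the authors' deposited tables, which list only genes with an adjusted p under 0.05 and a log2 fold change of at least 0.5 in size, 8 of the 39 members appear in 7 of 13 comparisons. In KO at 12 h against 0 h the authors' deposited table lists Ctsk at 1.42, Atp6v1h at 0.54 and Atp6v1d at 0.52. In WT at 12 h against 0 h the authors' deposited table lists Ctsk at 1.03, Atp6v1d at 0.56, Atp6v1a at 0.53 and Atp6v1c1 at 0.51. For the genotypes the authors' deposited table, signed WT over KO, lists Ctsl alone among members, at 0.50 at 0 h and 0.64 at 3 h.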

How the data were processed

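RNA was sequenced from 30 libraries in 10 groups of genotype and time, 3 per group. The gene table deposited by the authors gives whole-number counts for each Ensembl gene. Library totals differ, so they were read as raw. Trimmomatic 0.35, HISAT2, StringTie, DESeq2 and GRCm38 are named, per the submitters' processing notes. How StringTie output became counts, the annotation and the strand setting are not stated, although the library kit is strand-specific per the labels. Counts derived from StringTie may be rounded estimates, and genes that overlap or have near-identical copies may share reads. The deposited tables of 13 comparisons give log2 fold changes and adjusted p-values of the authors, per the file headers. Their columns of normalized signal, deposited by the authors, were set aside.

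Gene names and positions are those of GENCODE M21, GRCm38 (54495 of 54532 IDs matched). The 39 members, the 5 further gene lists and the markers were chosen with earlier results of these data known. Genes were filtered with edgeR's filterByExpr (minimum count 10; 12393 genes, 98.66% of counts kept) and scaled by TMM. edgeR 4.0.16 (R 4.3.3) fitted 1 mean for each group over the 30 libraries by robust quasi-likelihood (common dispersion 0.01863, a coefficient of variation of 13.7%). The same steps were also run on simulated counts with known changes in 1 group, at a lower dispersion than that of these data. Two-sided p-values received a Benjamini-Hochberg adjustment across the 12393 genes (threshold 0.05). The F test of genotype and time covers 4 differences. CPM are counts over the scaled totals, with no prior count. Any member could be named, with values per library for those with the largest changes, and of each list up to 3 called rises, 3 called falls and 3 genotype differences, plus Tfeb, Tfe3, Mitf, Tcirg1 and Acp5. A gene of the list of other hydrolases is not reported here by name. Alternatives were median-of-ratios factors, DESeq2 1.42.0, no filter, scaling on protein-coding genes, the replicate number as a block, the compared groups alone, the small RNA share as a covariate and each library left out. No pair of libraries of a group agreed within sampling noise.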

Additional observations from a re-analysis of the deposited data

Results flagged for a closer look

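Psap was called as changing differently from 0 h in the 2 genotypes by a direct test, in calls that rest on single libraries. The F test of the 4 differences gave an adjusted p of 0.0134, and the KO change minus the WT change at 12 h was 0.25 on the log2 scale. At 12 h all 3 KO libraries lay above the KO libraries at 0 h and all 3 WT libraries below the WT libraries at 0 h. Beside this, the small RNA share in WT was 3.82 to 4.01% at 12 h and 5.48 to 6.04% at 0 h, and in KO it lay between 3.07 and 4.28% over all times. With that share as a covariate the 12 h difference was 0.23 (adjusted p = 0.545) and the F test gave 0.738, and over all genes the F test called 13, against 110 without it. The F test was lost without the 12 h libraries (adjusted p = 0.903), and without WT 12 h replicate 3 or KO 12 h replicate 1 alone. The 12 h difference was likewise lost with single libraries left out, and both calls were lost without the filter on low counts.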

How the results depend on the processing

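Of 171 called member results, 102 held with any 1 library left out. Median-of-ratios factors ended 6, scaling on protein-coding genes 8, DESeq2 27, the compared groups alone 54 and no count filter 71, and none of these settings reversed a direction. Without the filter, calls over all genes went from 1346 to 741 in KO and from 1286 to 743 in WT at 9 h. At 12 h they went from 1823 to 1187 in KO and from 2245 to 1486 in WT. The genotype average went from 3082 to 3043. With the compared groups alone, KO at 3 h gave 46, against 151. Outside the genotype average such losses were thus not particular to the members. Without the filter the median change over all genes was 0.32 in WT at 12 h and 0.18 in the genotype average. Replicate numbers did not pair the samples (correlation of deviations -0.0736 to 0.0956, mean 0.00366), and the replicate block ended 5 of 171 calls and kept 166. With no count filter the members called were 0, 3, 12 and 10 in KO and 0, 3 and 10 in WT (3 to 9 h), 1 in KO and 7 in WT for 12 h against 9 h, 5, 5 and 0 for KO against WT at 0, 3 and 12 h, and 0 for the interaction and for the KO change minus the WT change at 12 h. With the compared groups alone they were 0, 3 and 11 in KO at 3, 6 and 12 h, 0 in WT at 3 h, 1 in KO for 12 h against 9 h, and 7, 6, 6 and 0 for KO against WT at 3, 6, 9 and 12 h. DESeq2 called 7 and 1 for KO against WT at 3 and 12 h. The small RNA share as a covariate left 4 in WT at 12 h and 0 in the genotype average, the 12 h change difference and the interaction, and without the 12 h libraries the interaction called 0. The covariate turned the direction of Lyz2 in WT at 12 h (0.01) and, in the genotype average, of Ctsz (0.03), Gusb (0.02), Dmxl2 (-0.12) and Mcoln2 (-0.32). The causes were not tested.

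For the further lists at 12 h, no count filter gave 1 protease or inhibitor in KO and 1 in WT, 4 hydrolases in WT, 1 pump gene in KO and 2 in WT, and 1 pump gene in the genotype average. The covariate gave, in WT at 12 h and in the genotype average, 0 and 0 proteases, 0 and 0 hydrolases, 0 and 0 pump genes, 1 and 0 membrane proteins and 1 and 1 MiT/TFE genes.

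With 1 library left out at a time, members called ranged from 1 to 3, 5 to 8, 15 to 20 and 12 to 18 in KO and from 1 to 2, 5 to 8, 12 to 14 and 13 to 16 in WT at 3 to 12 h. They ranged from 1 to 2 in KO and 5 to 8 in WT for 12 h against 9 h. For KO against WT they ranged from 6 to 9 at 0, 3 and 6 h, 6 to 10 at 9 h, 0 to 3 at 12 h and 20 to 23 on average, from 0 to 2 for the interaction and from 0 to 2 for the change difference at 12 h. The proteases ranged from 2 to 3 in KO, 1 to 2 in WT and 2 to 2 on average, the hydrolases from 5 to 7, 5 to 7 and 9 to 12, the pump genes from 3 to 3, 2 to 4 and 3 to 5, the membrane proteins from 8 to 9, 7 to 8 and 9 to 11, and the MiT/TFE genes from 5 to 6, 3 to 4 and 8 to 10. At 0.05 and 3 libraries per group, small changes of low genes such as Glb1 (standard error 0.24 to 0.26) were not detectable.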

Other observations

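Asah1, the acid ceramidase, fell into separate ranges across libraries without following genotype or time. In 19 libraries it lay at or under 147 CPM and in 11 at or over 178 CPM, and this empty stretch covered 31.0% of its whole range, the widest inner gap relative to range of the 39 genes. The upper range held 5 KO and 6 WT libraries from all times but KO at 12 h, for example 194 and 178 CPM beside 124 CPM in KO at 0 h and 199 CPM beside 125 and 122 CPM in WT at 0 h. Asah1 was called in no comparison.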
